A study of Mus musculus with 2 samples.

Results

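The genes followed here are 8 cytotoxic granule and effector genes of the mouse: Gzma, Gzmb and Gzmk, which encode granzymes, Prf1 (perforin), Nkg7 (a membrane protein of cytotoxic granules), Ifng (interferon gamma), Klrk1 (the activating receptor NKG2D) and Klrd1 (CD94, which pairs with NKG2 chains). They were taken by symbol from the 27998 genes listed in the count matrices, and all 8 were found. Cells came from the region of a 2 mm parietal bone defect in the skull of wild-type C57BL/6 mice, 14 days after surgery. The defects had been filled with a CGG hydrogel or a CGG-Cit hydrogel, names that the labels do not spell out, and no unfilled defect was among the samples. Each hydrogel gave 1 library of droplet-based 3′ single-cell RNA sequencing, and how many mice went into a library was not given. With 1 library per hydrogel, a difference between libraries has no replicate check, so no p-value is given and every interval covers counting error only.

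Natural killer (NK) cells and CD8 T cells kill target cells by releasing granules. Perforin opens the target membrane, and granzymes, which are serine proteases, enter and cleave proteins inside. Interferon gamma is secreted and acts on macrophages, stromal cells and bone cells through its receptor, while NKG2D and CD94 sit on the surface and read stress-induced ligands and non-classical MHC molecules. In healing bone, T and NK cells arrive with the inflammatory infiltrate and lie beside the marrow lineages of the skull.

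After filtering, 11048 CGG cells (82107891 UMIs, median 3969 per cell) and 9994 CGG-Cit cells (95785575 UMIs, median 5913.5) remained, where a UMI is a counted RNA molecule. The T and NK clusters held 715 CGG cells (6.47%) and 565 CGG-Cit cells (5.65%). Clustered without the 8 genes and named from marker lists, they split into NK-like cells (94 CGG and 155 CGG-Cit), CD8-like T cells (163 and 183), CD4-like T cells with regulatory cells included (258 and 141), gamma delta-like T cells (172 and 51), type 2 innate lymphoid-like cells (7 and 12), and a cluster led by histone and mitosis genes that kept no name (21 and 23). These are called NK, CD8, CD4 and gamma delta cells below. Among T and NK cells, the NK share was 13.1% in CGG and 27.4% in CGG-Cit, and the gamma delta share was 24.1% and 9.03%. The classes were checked against marker genes outside the 8. NK cells had a UMI of Ncr1 in 63.8% (CGG) and 86.5% (CGG-Cit) and of Cd3e in 1.06% and 1.94%. Any of Cd3d, Cd3e and Cd3g was found in 6.38% and 9.03% of NK cells. CD8 cells had Cd8b1 in 76.1% and 57.9%, CD4 cells had Cd4 in 60.5% and 52.5%, and gamma delta cells had Cd163l1 in 75% and 68.6%. A B-lineage marker (Cd79a, Cd79b, Ebf1 or Vpreb3) was found in 7.45% and 39.4% of NK cells and 13.5% and 32.8% of CD8 cells. In CD4 cells it was found in 19.8% and 42.6%, and in gamma delta cells in 25.6% and 51.0%. The CD8 class was drawn from different clusters in the libraries: 161 of its CGG cells lay in a cluster led by Cd8a and Cd8b1, and 182 of its CGG-Cit cells lay in another, led by the globin genes Hba-a1 and Hba-a2 ahead of Cd8b1 and Cd8a. Free RNA was present in both libraries: Hba-a1 was found in 78.7% of CGG and 92.9% of CGG-Cit NK cells, and Col1a1 in 81.9% and 0.645%. B-lineage cells (918 CGG and 3883 CGG-Cit), which should lack all 8 genes, therefore serve as the background below. Their median depth was 2835.5 and 3227 UMIs, against 4684.5 and 5126 in NK cells, 4339 and 4866 in CD8 cells, 4056 and 4175 in CD4 cells and 3872 and 4600 in gamma delta cells. The libraries shared 26 cell barcodes among kept cells, of which 2 fell in a T or NK class in either library and 0 in both.

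Positions are given in build GRCm38 with the GENCODE M21 annotation. Gzma (chr13:113093825-113100981, minus strand) and Gzmk (chr13:113171608-113225908, minus strand) are neighbours 70.6 kb apart with 0 protein-coding genes between them, and Klrd1 (chr6:129591782-129598775, plus strand) and Klrk1 (chr6:129610323-129623864, minus strand) are 11.5 kb apart, also with 0 between. Gzmb lies at chr14:56258838-56262260 (minus strand), Prf1 at chr10:61297833-61304680 (plus strand), Nkg7 at chr7:43437073-43438249 (plus strand) and Ifng at chr10:118441046-118445892 (plus strand). The annotated Gzmk gene overlaps Esm1 on the other strand, and whether the deposited counts used strand was not given in the sources used here. RefSeq promoters (GRCm38.p6) matched 7 of the 8 genes, Klrd1 being the exception. The 250 bases before the RefSeq start of 4 of them are shown, because the results below turn on how differently Gzma, Gzmb, Prf1 and Nkg7 were spread over the cell classes. Capitals mark the Runx motif TGTGGT or its reverse complement ACCACA and the T-box motif GGTGTGA, searched on both strands; Runx3, Eomes and Tbx21 (T-bet) are the factors of these families known from cytotoxic lymphocytes.
Gzma: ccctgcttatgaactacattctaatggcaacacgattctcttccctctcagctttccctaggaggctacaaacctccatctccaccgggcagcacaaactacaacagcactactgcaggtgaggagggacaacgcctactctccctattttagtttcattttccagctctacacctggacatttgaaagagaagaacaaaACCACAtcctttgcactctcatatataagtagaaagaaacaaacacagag
Gzmb: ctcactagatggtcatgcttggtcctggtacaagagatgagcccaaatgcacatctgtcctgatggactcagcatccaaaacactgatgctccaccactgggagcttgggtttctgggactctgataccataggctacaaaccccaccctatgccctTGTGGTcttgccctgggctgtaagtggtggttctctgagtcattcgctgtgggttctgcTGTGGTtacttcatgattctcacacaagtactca
Prf1: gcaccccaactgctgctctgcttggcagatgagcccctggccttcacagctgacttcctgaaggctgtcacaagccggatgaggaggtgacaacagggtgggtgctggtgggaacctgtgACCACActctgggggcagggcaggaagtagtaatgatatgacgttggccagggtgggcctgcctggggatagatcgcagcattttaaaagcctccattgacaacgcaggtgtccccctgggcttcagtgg
Nkg7: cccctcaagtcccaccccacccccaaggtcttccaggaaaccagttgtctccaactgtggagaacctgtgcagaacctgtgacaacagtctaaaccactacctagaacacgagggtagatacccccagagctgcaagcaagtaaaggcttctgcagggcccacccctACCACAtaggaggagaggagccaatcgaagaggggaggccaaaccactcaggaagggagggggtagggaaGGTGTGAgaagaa
These windows are chr13:113100982-113101231 (minus strand) for Gzma, chr14:56262335-56262584 (minus strand) for Gzmb, chr10:61297586-61297835 (plus strand) for Prf1 and chr7:43436888-43437137 (plus strand) for Nkg7. Counted back from the start, the Runx letters stand at bases 50 to 45 in Gzma, 93 to 88 and 34 to 29 in Gzmb, 130 to 125 in Prf1 and 83 to 78 in Nkg7, and the T-box letters at 13 to 7 in Nkg7. Klrk1 also held the Runx letters (129 to 124) and Gzmk the T-box letters (75 to 69), while the Ifng window held neither. RefSeq and GENCODE starts differ for some genes: the last 65 bases of the Nkg7 window, with its T-box letters, and the last 3 of the Prf1 window lie inside the annotated GENCODE gene, as does the whole Gzmk window (250 bases). Of 32851 promoter windows of the same length, 14.0% held the Runx letters and 3.33% the T-box letters. A match of letters is a description and does not show binding.

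Gzma, a trypsin-like granzyme, was above all a gene of NK cells. In NK cells, 85 of 94 CGG cells (90.4%) and 147 of 155 CGG-Cit cells (94.8%) held a Gzma UMI, and the summed level was 5534 CPM (CPM is UMIs per 1000000 UMIs of the class; 95% interval 5325 to 5749) and 6299 CPM (6132 to 6470). A Gzma-positive NK cell held a median of 26 and 29 UMIs, up to 104 and 132. In CD8 cells the share was 12.9% (21 cells, 401 CPM) and 12.0% (22 cells, 382 CPM), so that the NK level was 13.8-fold higher in CGG and 16.5-fold higher in CGG-Cit. In CD8 cells the top 10% of cells by Gzma held 98.0% and 98.9% of its UMIs, against 29.8% and 30.1% in NK cells. Gzma was thus carried by nearly every NK cell and by a small minority of the CD8 class. Of that minority, 14 of 21 CGG and 14 of 22 CGG-Cit cells had a marker of NK cells. In the whole CD8 class 35.0% and 42.6% did. A Cd3 UMI was found in all 21 and in 20 of the 22. Whether some of them are NK cells was not tested. CD4 cells stood at 66.5 and 260 CPM, and gamma delta cells at 4.49 CPM (3 UMIs) and 4.42 CPM (1 UMI), near the B-lineage background of 2.39 and 6.99 CPM. The unnamed cycling cluster ranked next to NK cells, at 1502 CPM (7 of 21 cells) and 2937 CPM (14 of 23).

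**Figure D1:**
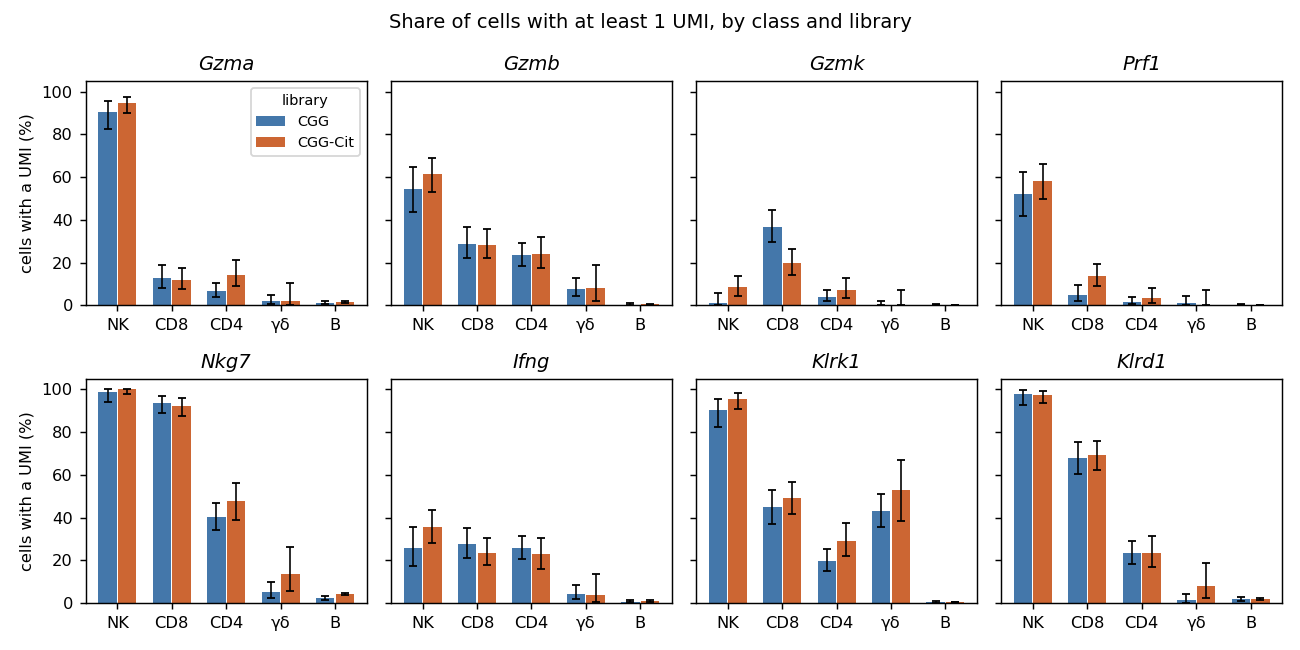
Share of cells with at least 1 UMI of each gene (vertical axes, percent) in NK, CD8, CD4, gamma delta (γδ) and B-lineage (B) cells of the CGG and CGG-Cit libraries. Bars are shares and error bars exact 95% binomial intervals; Gzma, for example, stands at 90.4% and 94.8% in NK cells and at 12.9% and 12.0% in CD8 cells.

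Gzmb, which cleaves after aspartate and triggers apoptosis, was spread more widely. Its UMIs were found in 51 of 94 CGG NK cells (54.3%, 845 CPM, 765 to 932) and 95 of 155 CGG-Cit NK cells (61.3%, 781 CPM, 723 to 843). CD8 cells stood at 28.8% (235 CPM) and 28.4% (269 CPM), CD4 cells at 23.6% (260 CPM) and 24.1% (279 CPM), and gamma delta cells at 7.56% (25.4 CPM) and 7.84% (35.3 CPM). The NK level was 3.59-fold that of CD8 cells in CGG and 2.91-fold in CGG-Cit, and the CD4 and CD8 levels did not differ beyond counting error in either library. Within NK cells Gzmb was concentrated: the top 10% of cells held 54.3% of its UMIs in CGG and 63.2% in CGG-Cit. In NK cells, 1 CGG and 4 CGG-Cit cells held Gzmb without Gzma, whereas 35 (37.2%) and 56 (36.1%) held Gzma without Gzmb. With Gzma in 85 of 94 and 147 of 155 NK cells, few could hold Gzmb alone. These counts thus do not show that the genes go together. CD8 cells showed the other order: 34 CGG and 37 CGG-Cit cells held Gzmb without Gzma, and 8 and 7 held Gzma without Gzmb.

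Gzmk, a granzyme known from memory-like CD8 T cells, ran against the other granzymes. It was detected in 60 of 163 CGG CD8 cells (36.8%, 139 CPM, 113 to 168) and 36 of 183 CGG-Cit CD8 cells (19.7%, 72.1 CPM, 56.1 to 91.3). NK cells held 1 UMI in CGG (2.10 CPM) and 16 UMIs in 13 CGG-Cit cells (18.8 CPM), CD4 cells 18.4 and 28.1 CPM, and gamma delta cells 0 UMIs in both libraries (0 of 172 and 0 of 51 cells, which allows a share of cells with a UMI of up to 1.74% and 5.88%, taken as 3 cells of the total). The NK level was 0.0151 of the CD8 level in CGG and 0.260 in CGG-Cit. The highest level of all classes was that of the cycling cluster, 157 CPM (9 of 21 cells) and 112 CPM (7 of 23), which did not differ from CD8 cells beyond counting error in either library. Among CD8 cells with Gzmb, 48.9% (CGG) and 36.5% (CGG-Cit) also held Gzmk, against 31.9% and 13% of those without.

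Prf1, the pore-forming partner of the granzymes, was largely limited to NK cells. It was found in 49 of 94 CGG NK cells (52.1%, 208 CPM, 169 to 253) and 90 of 155 CGG-Cit NK cells (58.1%, 215 CPM, 185 to 248). CD8 cells held 8 UMIs in 8 cells in CGG (10.5 CPM) and 32 UMIs in 25 cells in CGG-Cit (33.4 CPM), so that NK cells were 19.9-fold and 6.42-fold higher. Of those Prf1-positive CD8 cells, 3 of 8 in CGG and 14 of 25 in CGG-Cit had a marker of NK cells. A Cd3 UMI was found in all 8 and in 22 of the 25. CD4 cells stood at 4.38 and 12.5 CPM and gamma delta cells at 2.99 and 0 CPM, all on fewer than 20 UMIs. Gzma, Gzmb and Prf1 were detected together in 33 of 94 CGG NK cells (35.1%, 25.5 to 45.6) and 56 of 155 CGG-Cit NK cells (36.1%, 28.6 to 44.2), and in 2 of 163 and 7 of 183 CD8 cells. With 2.02 and 2.03 Prf1 UMIs per positive NK cell, a cell without a Prf1 UMI is not shown to lack the transcript.

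Nkg7 was the broadest marker of killer cells. It was detected in 93 of 94 CGG NK cells (2266 CPM, 2133 to 2405) and 155 of 155 CGG-Cit NK cells (2742 CPM, 2632 to 2855), and in 93.9% and 92.3% of CD8 cells (1349 and 1345 CPM). The NK level was 1.68-fold that of CD8 cells in CGG and 2.04-fold in CGG-Cit. CD4 cells followed at 335 CPM (40.3%) and 510 CPM (47.5%), with gamma delta cells at 37.4 and 61.8 CPM, above the B-lineage 4.79 and 11.1 CPM. In CGG, however, 132 of 714 endothelial cells also held an Nkg7 UMI, against 9 of 172 gamma delta cells. The CGG gamma delta level is thus not shown to lie above background in general. Most Nkg7 UMIs of the libraries nevertheless came from outside the T and NK cells, as described further on.

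Ifng was spread over NK, CD8 and CD4 cells, with levels within 2-fold of each other in both libraries. The shares were 25.5% and 35.5% in NK cells, 27.6% and 23.5% in CD8 cells and 25.6% and 22.7% in CD4 cells (CGG and CGG-Cit). The matching levels were 208, 169 and 227 CPM in CGG and 168, 152 and 145 CPM in CGG-Cit. The NK level was 1.23-fold that of CD8 cells in CGG (0.938 to 1.61) and 1.11-fold in CGG-Cit (0.872 to 1.40), intervals that both hold 1. The CD8 level was 0.744 of the CD4 level in CGG (0.598 to 0.923), a difference beyond counting error, and 1.05 of it in CGG-Cit (0.80 to 1.37). In CGG, however, 1 CD4 cell held 60 of the 259 Ifng UMIs of its class, while the highest CD8 cell held 13 of 129. The CGG ratio without that CD4 cell was not tested. Gamma delta cells, whose cluster was led by Il17a, stood at 20.9 and 30.9 CPM. The top 10% of NK cells held 79.8% and 65.0% of the Ifng UMIs of that class.

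The receptor genes were also found well beyond NK cells. Klrd1 was found in 97.9% of CGG NK cells (1162 CPM) and 97.4% of CGG-Cit NK cells (1160 CPM), in 68.1% and 69.4% of CD8 cells (400 and 467 CPM) and in 23.3% and 23.4% of CD4 cells (102 and 176 CPM). Its gamma delta level was 4.49 CPM (3 UMIs) and 22.1 CPM (5 UMIs). Klrk1 was found in 90.4% and 95.5% of NK cells (524 and 756 CPM), 44.8% and 49.2% of CD8 cells (281 and 308 CPM) and 19.8% and 29.1% of CD4 cells (114 and 153 CPM). It was the 1 member at a T-cell level in gamma delta cells, detected in 74 of 172 CGG cells (43.0%, 212 CPM) and 27 of 51 CGG-Cit cells (52.9%, 230 CPM), against 0.436% and 0.386% of B-lineage cells. Gamma delta cells thus held the NKG2D transcript with Gzma, Gzmk, Prf1 and Klrd1 each at 5 or fewer UMIs in each library.

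Within each library, NK cells exceeded CD8 cells by more than 2-fold for 4 of 8 genes in CGG (Gzma, Gzmb, Prf1 and Klrd1), where 7.29% of all 6012 genes with at least 20 UMIs did so, and for 6 of 8 in CGG-Cit (the same 4 with Nkg7 and Klrk1), where 8.89% of 6847 did. Gzmk was lower in NK cells in both libraries. NK cells exceeded CD4 cells for 6 of 8 genes in each library (7.1% of all genes in each) and gamma delta cells for 7 of the 7 with enough UMIs in each library (7.86% and 12.7% of all genes). CD8 cells exceeded CD4 cells for 5 of 7 genes in CGG (3.03%) and 5 of 8 in CGG-Cit (3.35%), and gamma delta cells for 6 of 7 (5.54%) and 7 of 8 (9.48%). CD4 cells exceeded gamma delta cells for 6 of 7 (6.95%) and 5 of 6 (11.1%). The genes were chosen because they mark cytotoxic cells, so these counts describe their distribution and do not test it.

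**Figure D2:**
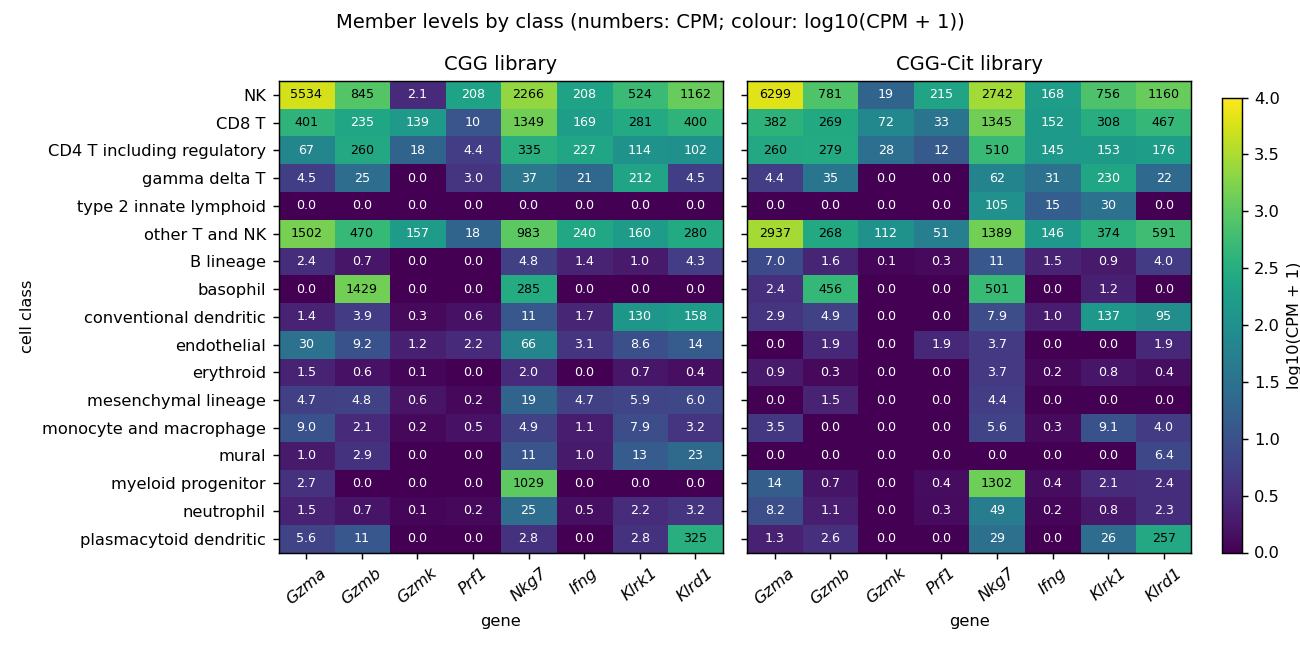
Level of each gene (columns) in each named class (rows) of the CGG library (left) and the CGG-Cit library (right). Printed numbers are CPM and the colour shows log10(CPM + 1). NK cells have the highest Gzma (5534 and 6299 CPM) and Prf1 (208 and 215 CPM), and Gzmb, Nkg7, Klrk1 and Klrd1 are also seen in basophil, myeloid progenitor and dendritic rows.

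The number of the 8 genes detected per cell separated NK, CD8, CD4 and gamma delta cells in the same order in both libraries. NK cells held a mean of 5.11 (CGG) and 5.51 (CGG-Cit) of the genes, CD8 cells 3.18 and 3.08, CD4 cells 1.45 and 1.72, gamma delta cells 0.640 and 0.882 and B-lineage cells 0.0632 and 0.0935. After each cell was thinned to 2000 UMIs, which left out 3 NK cells in each library, the means were 4.26 and 4.48 in NK cells, 2.39 and 2.32 in CD8 cells, 1.07 and 1.21 in CD4 cells and 0.462 and 0.469 in gamma delta cells. At that depth 74.7% of CGG and 82.9% of CGG-Cit NK cells held 4 or more of the genes, as did 17.1% and 17.5% of CD8 cells. The unnamed cycling cluster (21 and 23 cells) lay between NK and CD8 cells, at means of 3.76 and 4.52. After thinning its means were 2.48 and 3.27. Within NK, CD8, CD4 and gamma delta cells, the difference between libraries was small beside the difference between these classes.

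**Figure D3:**
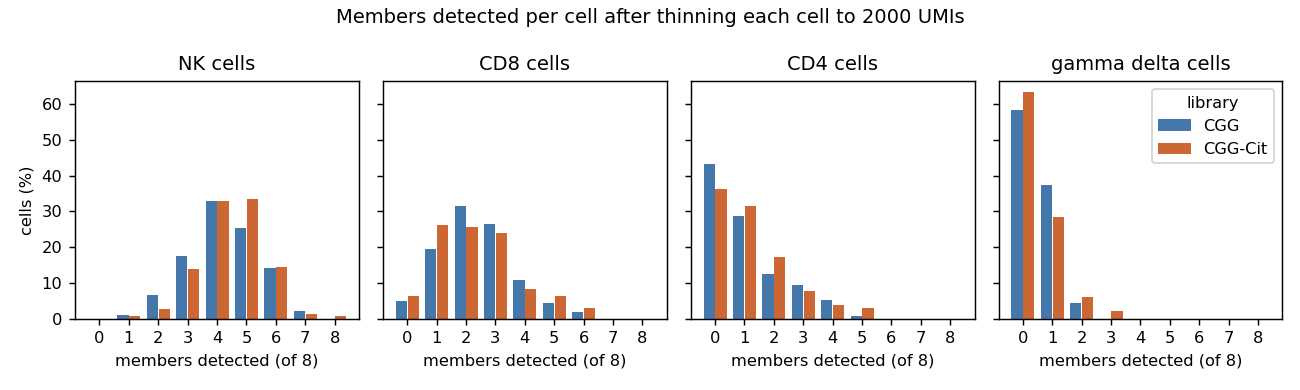
Number of the 8 genes detected per cell (horizontal axes) after thinning each cell to 2000 UMIs, with the share of cells in percent on the vertical axes, for NK, CD8, CD4 and gamma delta cells. Bars are the CGG and CGG-Cit libraries; NK cells centre on 4 and 5 genes (means 4.26 and 4.48), CD8 cells on 2 (2.39 and 2.32).

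Between the hydrogels, 7 of the 8 genes were within 2-fold in NK cells. The summed level of all 8 genes was 10749 CPM in CGG and 12139 CPM in CGG-Cit, a ratio (CGG-Cit over CGG) of 1.13 (1.09 to 1.17). By gene the ratio was 1.14 for Gzma (1.09 to 1.19), 0.924 for Gzmb (0.815 to 1.05), 1.03 for Prf1 (0.805 to 1.33), 1.21 for Nkg7 (1.13 to 1.30), 0.807 for Ifng (0.621 to 1.05) and 0.998 for Klrd1 (0.898 to 1.11). The largest was Klrk1, at 524 CPM in CGG and 756 CPM in CGG-Cit (1.44, 1.24 to 1.68), found in 65.9% and 77.0% of NK cells after thinning. None of the 7 genes with at least 20 UMIs passed 2-fold, against 8.25% of all 6171 genes so measured, and their median log2 ratio was 0.04, beside -0.03 over all genes. Gzmk, with 1 and 16 UMIs, was too sparse for this comparison (ratio 8.94, 1.39 to 375). At a finer clustering NK cells divided by library: the cluster with Vegfa and Irf8 as leading genes held 91 cells from CGG and 7 from CGG-Cit, and the one with Ncr1 and Klra4 held 3 and 149. Each thus had too few cells of 1 library for a comparison within it.

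In CD8 cells the 8 genes together had a ratio of 1.01 (0.960 to 1.07), with individual genes on either side of 1. Prf1, at 10.5 CPM in CGG and 33.4 CPM in CGG-Cit, had a ratio of 3.20 (1.44 to 8.03), and Gzmk, at 139 and 72.1 CPM, a ratio of 0.520 (0.379 to 0.711). Gzma (0.951), Nkg7 (0.997), Ifng (0.899), Klrk1 (1.10), Gzmb (1.14) and Klrd1 (1.17) lay between. Prf1 was the 1 gene of 8 past 2-fold, where 7.89% of all 6703 genes were. These ratios depended on which CD8 cells were compared. A finer clustering was chosen for this split after the data were seen. There the CD8 class was named anew and held 163 CGG and 173 CGG-Cit cells, against 163 and 183 above, so it is not exactly the same cells. Its CGG-Cit cells divided into 82 cells led by Cd8a and Cd8b1 and 91 cells led by Klra6 and Nsg2. All 163 CGG cells of this class were in clusters led by Cd8a. These Cd8a-led clusters, pooled here, divided by library: the first held 161 CGG cells and 1 CGG-Cit cell, the second 2 and 81. The 91 cells had Ccr7, a chemokine receptor for lymph node homing, in 34.1% of cells, against 11.0% of the 82 and 12.9% of the 163. Gzma, Gzmb, Ifng and Gzmk were low in the 91 cells: Gzma was at 7.71 CPM against 649 CPM in the 82 and 402 CPM in the 163, Gzmb at 54.0 against 488 and 236 CPM, Ifng at 46.3 against 293 and 169 CPM, and Gzmk at 15.4 against 157 and 140 CPM. Prf1 did not follow, at 17.4 CPM (9 of 91 cells) against 48.8 CPM (14 of 82) and 10.5 CPM (8 of 163). Nkg7 (935, 1899 and 1359 CPM), Klrk1 (251, 352 and 281 CPM) and Klrd1 (494, 439 and 403 CPM) were present in each of these groups. With the pooled Cd8a-led cells alone, the Gzmk ratio between hydrogels was 1.12 in place of 0.520. The ratio of the summed genes was then 1.44 in place of 1.01. As these cells clustered apart by library, neither ratio compares cells of a shared cluster.

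**Figure D4:**
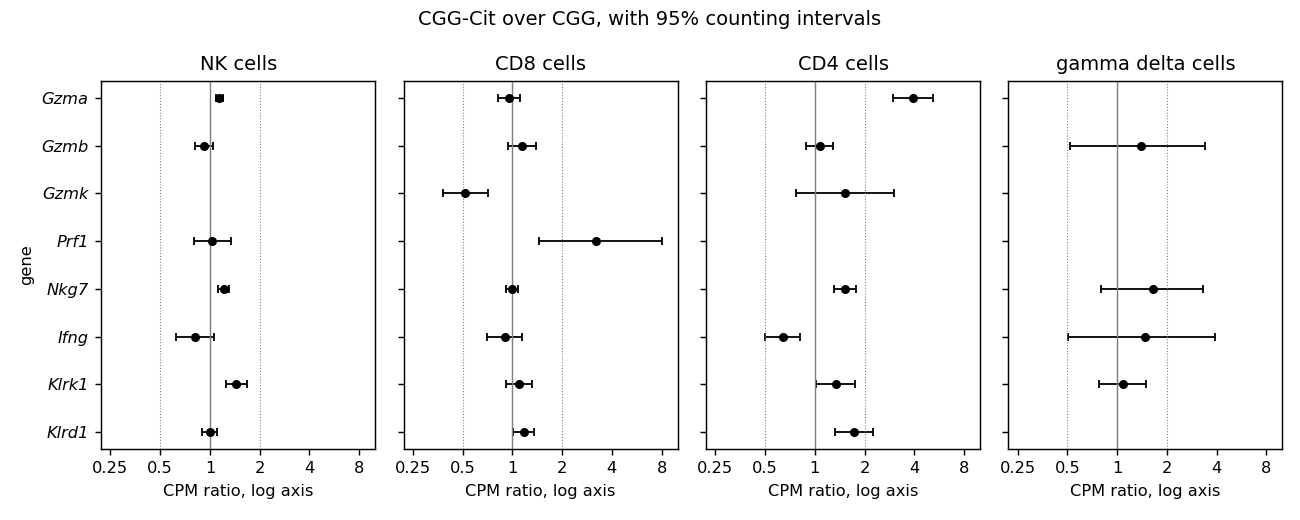
Ratio of CPM, CGG-Cit over CGG, on a log axis for each gene with at least 20 UMIs in NK, CD8, CD4 and gamma delta cells. Points are ratios, bars exact 95% counting intervals, the solid line is 1 and dotted lines mark 2-fold either way. NK ratios lie between 0.807 and 1.44, while Prf1 in CD8 cells (3.20) and Gzma in CD4 cells (3.91) lie past 2-fold.

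CD4 cells carried these genes in 2 clusters with unlike profiles. The cluster led by Foxp3 and Tnfrsf4, the regulatory T cell genes, held 71 CGG and 40 CGG-Cit cells. A Foxp3 UMI was found in 61 of the 71 and 19 of the 40, and a B-lineage marker in 17 and 29. Its CGG-Cit values are therefore not shown to be those of regulatory cells alone. Gzmb was found there in 40.8% of CGG and 47.5% of CGG-Cit cells, at 594 and 556 CPM. In the cluster led by Cd40lg and Cd4 (187 and 101 cells) it stood at 110 and 122 CPM. Ifng had the reverse order, at 326 CPM (34.2%) and 190 CPM (28.7%) in the Cd40lg-led cluster and 5.66 and 64.7 CPM in the Foxp3-led cluster. Nkg7 was also higher in the Cd40lg-led cluster, at 413 against 161 CPM in CGG and 579 against 388 CPM in CGG-Cit.

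Over the whole CD4 class, the CGG-Cit over CGG ratio was 3.91 for Gzma (2.97 to 5.20), 1.72 for Klrd1 (1.32 to 2.25), 1.52 for Nkg7 (1.31 to 1.77), 1.34 for Klrk1 (1.02 to 1.76), 1.07 for Gzmb (0.887 to 1.30) and 0.640 for Ifng (0.499 to 0.814), with 1 of 7 genes past 2-fold where 10% of all 7100 genes were. The Gzma value rested on few cells. In the Foxp3-led CGG-Cit cluster 7 cells held 143 of the 167 Gzma UMIs of the class, with 56, 25 and 24 in the highest 3. Of these 7 cells, 1 had a Foxp3 UMI, 1 a Cd4 UMI, 5 a marker of NK cells and 7 a marker of B-lineage cells. A B-lineage marker was found in 29 of the 40 cells of that cluster, against 17 of 71 in CGG. Such markers were common in CGG-Cit, in 42.6% of all CD4 and 39.4% of NK cells, so they alone do not show mixed cells. Among cells of the class with a Cd4 UMI and no Cd8 UMI (150 CGG and 71 CGG-Cit), Gzma was at 81.0 and 38.2 CPM, Gzmb at 250 and 141 CPM, Nkg7 at 354 and 403 CPM and Ifng at 262 and 185 CPM. The Gzma ratio was then 0.472, so its direction was reversed, while the summed Ifng level stayed lower in CGG-Cit. That Ifng difference also rested on few cells: 1 cell held 60 of the 184 Ifng UMIs in CGG, and 1 cell 20 of the 63 in CGG-Cit. Its direction without those cells was not tested.

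Gamma delta cells gave 4 genes with at least 20 UMIs, and none passed 2-fold between libraries, where 12.3% of all 5319 genes did. Klrk1 had a ratio of 1.08 (0.771 to 1.5), Gzmb 1.39 (0.519 to 3.40), Ifng 1.48 (0.504 to 3.91) and Nkg7 1.65 (0.794 to 3.30). Each of these intervals holds both 1 and the ratio of 1.44 seen for Klrk1 in NK cells.

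Several of the genes had a large share of their UMIs outside the T and NK cells. T and NK classes held 86.3% of CGG and 89.8% of CGG-Cit Gzma UMIs, 86.1% and 94.4% of Gzmk, 80.5% and 91.2% of Prf1 and 79.1% and 87.5% of Ifng, but 65.8% and 68.1% of Gzmb, 47.4% and 74.1% of Klrk1, 50.8% and 75.9% of Klrd1 and 48.7% and 21.7% of Nkg7. Basophils, named from Mcpt8 and Prss34, were the other Gzmb source. They held a Gzmb UMI in 14 of 23 CGG cells (60.9%, 1429 CPM, 1270 to 1603) and 31 of 67 CGG-Cit cells (46.3%, 456 CPM, 411 to 505), up to 85 and 63 UMIs in a cell, and contributed 18.2% and 21.4% of the Gzmb UMIs of the libraries. Prf1 had 0 UMIs in basophils of either library (0 of 23 and 0 of 67 cells, which allows a share of cells with a UMI of up to 13% and 4.48%, taken as 3 cells of the total), and Gzma had 0 and 2 UMIs. Of the 8 genes, only Gzmb and Nkg7 (285 and 501 CPM) had more than 2 UMIs in basophils of either library. The basophil Gzmb UMIs were concentrated: 2 of the 23 CGG cells held 58.1% and 7 of the 67 CGG-Cit cells 68.6%. Without those cells the level was 650 and 168 CPM, against 449 and 321 CPM in NK cells likewise without their top 10%. Trimmed alike, basophils thus stayed above NK cells in CGG and below them in CGG-Cit. The 845 CPM of CGG NK cells was not trimmed and is not a like comparison for the 650 CPM.

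Nkg7 was a gene of immature myeloid cells as well. All 37 CGG and 245 of 246 CGG-Cit myeloid progenitors, named from Elane and Ms4a3, held it, at 1029 CPM (970 to 1090) and 1302 CPM (1277 to 1326), beside 1349 and 1345 CPM in CD8 cells. They contributed 19.4% of CGG and 54.7% of CGG-Cit Nkg7 UMIs. Neutrophils of the cluster led by Chil3 and Camp stood at 63.2 CPM (37.7% of cells) and 110 CPM (52.2%). The killer-cell receptors also reached dendritic cells: Klrd1 was found in 45 of 50 CGG (90.0%, 325 CPM) and 67 of 83 CGG-Cit plasmacytoid dendritic cells (80.7%, 257 CPM), and Klrk1 in 46.6% (130 CPM) and 50.9% (137 CPM) of conventional dendritic cells. In those plasmacytoid dendritic cells Klrk1 was at 2.80 and 26.1 CPM and Gzmb at 11.2 and 2.61 CPM. The shares of cells given here were not matched for depth. With cells thinned as above, Klrd1 was found in 48.9% (CGG) and 41.8% (CGG-Cit) of plasmacytoid dendritic cells. In CD8 cells its share was then 46.8% and 50.3%. Klrk1 was then found in 20.6% and 23.1% of conventional dendritic cells. Myeloid progenitors had a median depth of 29802 and 34179 UMIs, and 78.4% and 87.3% of them held Nkg7 after thinning.

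**Figure D5:**
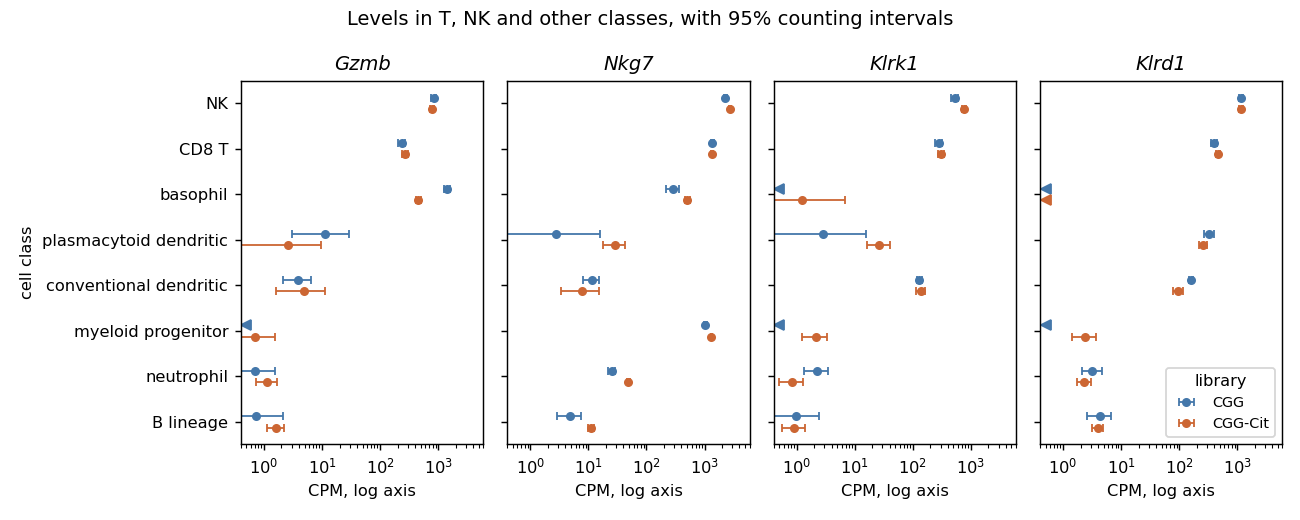
Levels of Gzmb, Nkg7, Klrk1 and Klrd1 (CPM, log axes) in 8 classes of the CGG and CGG-Cit libraries. Points are summed levels, bars exact 95% Poisson intervals, and a left-pointing triangle marks a class with 0 UMIs. Basophils lie above NK cells for Gzmb in CGG (1429 against 845 CPM), with 58.1% of those basophil UMIs in 2 cells, and myeloid progenitors hold Nkg7 at 1029 and 1302 CPM.

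Part of the low Gzma levels elsewhere lay in few cells. In CGG-Cit B-lineage cells 5 cells with 4 or more of the genes held 91 of 153 Gzma UMIs, in neutrophils 3 such cells held 146 of 179, and in myeloid progenitors 3 held 111 of 121. In CGG the UMIs were spread more widely: such cells held 18 of 97 Gzma UMIs in endothelial and 13 of 107 in mesenchymal-lineage cells, but 1 cell held 82 of 116 in monocytes and macrophages. In the CGG endothelial class 66 of 714 cells had a Gzma UMI (29.8 CPM), of which 16 had an NK marker. Whether cells with 4 or more of the genes are doublets that passed the filter was not tested.

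The genes whose levels over class and library were most like those of each member are given as a description, over 31 points from 16 classes that share libraries and depth, among 13695 genes. Gzma was most like Eomes (Pearson r 0.97), Prf1 (0.94) and Klre1 (0.94), and Prf1 most like Klra7, Eomes and Samd3 (0.96 each). Among the genes most like Gzmb were Sytl3 (0.96) and Prkcq (0.89). Gzmk was most like Cd160 (0.91), Gimap7 (0.90) and Fasl (0.88), and Ifng most like Sh2d1a (0.98), Gm19585 (0.98) and Fasl (0.97). Nkg7 was most like Baiap3 (0.92), Cst7 (0.87) and Dennd2d (0.83), Klrk1 most like Ms4a4b (0.93), F2rl2 (0.91) and Ccl5 (0.90), and Klrd1 most like Cxcr3 (0.86), Il12rb2 (0.85) and Klrk1 (0.85). Between members, r ran from 0.45 for Nkg7 with Klrd1 to 0.94 for Gzma with Prf1.

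Partner genes were followed in NK cells in lists by function. Over all 6171 genes measured there, 8.25% passed 2-fold between hydrogels in either direction, so a list of this size with none past it is near that background. Of the granule matrix, processing and release genes, 12 of 12 had at least 20 UMIs and none passed 2-fold between hydrogels. Srgn (serglycin, the granule proteoglycan) was at 1229 CPM in CGG and 979 CPM in CGG-Cit (ratio 0.796, 0.716 to 0.887), Serpinb9 (an inhibitor of granzyme B) at 787 and 733 CPM, and Ctsw (a cathepsin of killer cells) at 426 and 467 CPM. Of the receptors and adaptors of NK cells, 2 of 12 passed 2-fold, both higher in CGG-Cit: Ncr1 (NKp46) at 260 and 568 CPM (2.18, 1.79 to 2.68) and Cd226 (2.24, 1.25 to 4.24), the latter on 15 and 60 UMIs. The adaptors that carry the signal of such receptors were at 2790 and 3220 CPM (Tyrobp, DAP12), 2299 and 2227 CPM (Fcer1g) and 585 and 620 CPM (Hcst, DAP10, the partner of NKG2D). Over all 6171 genes, 3.86% passed 2-fold higher in CGG-Cit.

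Of the other effector ligands and cytokines, 5 of 9 had enough UMIs and none passed 2-fold (8.25% of all genes). Ccl5, a chemokine stored by killer cells, was at 8007 and 10957 CPM in NK cells (ratio 1.37, 1.32 to 1.42), Ccl4 at 1020 and 1704 CPM (1.67, 1.51 to 1.86) and Xcl1, which draws dendritic cells, at 1682 and 1761 CPM (1.05, 0.960 to 1.14). Ccl5 was at a like level in CD8 cells, 8682 and 7093 CPM. Of the transcription factors 8 of 9 were measured and none passed 2-fold (8.25% of all genes): Id2 was at 856 and 745 CPM, Runx3 at 602 and 373 CPM (0.619, 0.526 to 0.729) and Ikzf2 at 44.1 and 63.3 CPM. The receptors for inducing cytokines gave 5 of 9 measured genes and none past 2-fold (8.25% of all genes), with Il18r1 at 183 and 237 CPM, Il2rb at 650 and 509 CPM (0.783, 0.675 to 0.908) and Il2rg at 266 and 264 CPM. Il18r1 was higher in gamma delta cells, at 571 and 583 CPM.

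On the receiving side, 7 of 10 genes of the interferon gamma receptor and its targets were measured in NK cells and none passed 2-fold (8.25% of all genes). Ifngr1 was at 1059 and 919 CPM and Jak1 at 839 and 993 CPM. Cxcl9 and Cxcl10, chemokines induced by interferon gamma, were highest outside the lymphocytes: Cxcl9 in mesenchymal-lineage cells (235 CPM in 3412 and 670 CPM in 40 cells) and Cxcl10 in conventional dendritic cells (727 and 1847 CPM). Of the 6 ligands of NKG2D and CD94 receptors, H2-T23 (Qa-1, read by CD94 with NKG2A) was the 1 measured gene, at 382 and 390 CPM in NK cells. The NKG2D ligands were sparse in every class of either library: the highest level of Raet1e was 5.22 CPM (CGG) and 16.7 CPM (CGG-Cit), both in endothelial cells (714 and 46 cells). H60b reached 4.49 CPM (gamma delta cells) and 5.57 CPM (endothelial cells), and Ulbp1 5.51 CPM (B lineage) and 10.2 CPM (the cycling T and NK cluster).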

How the data were processed

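The 2 matrices of raw UMI counts (genes by cell barcodes) were used as deposited by the authors, with no normalization. The submitters' processing notes give Cell Ranger 3.0 and genome mm10, but version 4.0.0 stands in the counts' own record, per the file headers. The CGG matrix held 12527 barcodes and 92517884 UMIs, and the CGG-Cit matrix 10806 barcodes and 106173570 UMIs. TCR constant genes were not used here.

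From these, barcodes with at least 200 genes and at most 20% mitochondrial UMIs were kept. Scrublet's own threshold marked 537 CGG-Cit cells (5.10%), which were removed, but 1 CGG cell, so the 1231 highest-scoring CGG cells were removed instead (0.8% per 1000 barcodes). Cells of both libraries were clustered together with scanpy 1.11.5 (2000 variable genes without the 8 genes, 30 components, 15 neighbours, Leiden resolution 1.0), and T and NK cells again (1500 genes, 20 components, resolution 0.5), in Python 3.11.15 with numpy 2.4.6 and scipy 1.17.1. Clusters were named from marker lists, requiring at least 3 markers.

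UMIs summed over a class and library gave CPM with exact Poisson intervals. Shares carry Clopper-Pearson intervals and ratios exact conditional binomial intervals (95%). Ratios needed 20 UMIs over both groups, and a count of 0 was read against 3 UMIs. Past 2-fold is a description of size, since 1 library per group allows no test. All 8 genes are named in each class. Of each functional list the 3 genes highest over the 4 main classes are named, others where they passed 2-fold or, chosen after their values were seen, as examples, and so are the 3 genes most like each member; some genes these rules would name are not reported here. The 8 genes and the lists were chosen with earlier results of these data known. Alternatives covered clustering, doublets, cell filters, scaling, weighting and thinning. The ratio script was tested on simulated data.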

Additional observations from a re-analysis of the deposited data

How the results depend on the processing

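No paired analysis was possible because each hydrogel has 1 library, and for the same reason no library could be left out. The sub-clustering resolution of 0.5 and the alternatives by single Cd4 or Cd8 transcripts and by Cd8a-led clusters were chosen after seeing the data. Of the values for single genes, 127 levels and 202 ratios stayed within the 95% interval of the reported value. Another 17 levels and 42 ratios moved outside it, and 12 ratios whose interval excluded 1 changed direction. A further 29 of 146 values for ratios whose interval held 1 fell on the other side of 1, 13 of them outside that interval. Among these, with Cd8a-led clusters Gzma turned from 0.951 to 1.62, Ifng from 0.899 to 1.73 and Nkg7 from 0.997 to 1.40 in CD8 cells, and Gzmb from 1.07 to 0.564 in Cd4-positive CD4 cells. Under classes set by per-cell transcripts, the ratio of the summed genes between hydrogels was 1.02 in NK cells (1.13 as reported), 1.17 in CD8 cells (1.01) and 0.927 in CD4 cells (1.39). The NK sum was then 11061 and 11325 CPM (10749 and 12139 as reported), and NK over CD8 was 3.23 and 2.83. With doublets kept, the summed ratio was 0.825 in CD8 and 1.18 in CD4 cells, and NK over CD8 in CGG-Cit was 4.94. The CGG-Cit CD8 class then held 280 cells (183 as reported) and the CGG-Cit CD4 class 25 (141). At most 10% mitochondrial UMIs gave 0.859 in CD8 and 1.94 in CD4 cells, an NK sum of 11903 CPM in CGG-Cit and NK over CD8 of 4.71 there. Under that filter the CGG-Cit CD8 and CD4 classes held 265 and 51 cells, so membership of the classes changed as well. Means over cells gave 1.13 in CD8 and 1.25 in CD4 cells, NK sums of 11476 and 13079 CPM and NK over CD8 of 3.79 in CGG-Cit. Thinning gave NK sums of 11709 and 12707 CPM and 4.26 and 4.48 genes per NK cell. Median-of-ratios scaling gave 1.07 and Cd8a-led clusters 1.44 in CD8 cells. In CD4 cells the summed ratio was 1.26 at resolution 1.0, 1.07 with the 8 genes kept in clustering and 0.863 in cells with a Cd4 and no Cd8 UMI. Resolutions 0.3 and 1.0 gave NK over CD8 of 4.23 each in CGG-Cit.

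The 12 changes of direction in ratios whose interval excluded 1 were in CD8 and CD4 cells. In CD8 cells Gzmk turned to 1.12 with Cd8a-led clusters and Klrd1 to 0.990 with doublets kept. In CD4 cells Gzma turned to 0.664 at resolution 1.0, 0.488 by per-cell transcripts, 0.716 with the 8 genes kept in clustering, 0.204 with doublets kept and 0.472 in Cd4-positive cells. There Nkg7 turned to 0.709 at resolution 1.0 and 0.488 with doublets kept, Klrk1 to 0.502 and 0.0773, and Klrd1 to 0.629 with doublets kept. The CGG-Cit CD4 class held 25 cells with doublets kept and 34 at resolution 1.0, against 141 as reported. The cause was not tested. Depth limits Prf1 in CD4 cells, Gzmk in NK cells and most genes in gamma delta cells, where counts were under 20 UMIs. It also limits Prf1 in CD8 cells, with 8 UMIs in CGG and 32 in CGG-Cit.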

Other observations

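Among the other granzymes, Gzmc showed a pattern of its own. Basophils held a Gzmc UMI in 9 of 23 CGG cells (550 CPM) and 15 of 67 CGG-Cit cells (187 CPM), with up to 35 and 42 UMIs in a cell, beside the Gzmb described above and with Srgn, the granule proteoglycan, in all 23 and all 67 cells. In NK cells Gzmc was found in 3 of 94 CGG cells (3 UMIs) and 5 of 155 CGG-Cit cells (232 UMIs), and 228 of those 232 UMIs lay in 1 cell, so the ratio of 43.2 between libraries (14.6 to 211) describes that cell. Gzmm was highest in CD8 cells of the 4 main classes, at 24.8 CPM (8.59% of cells) in CGG and 38.7 CPM (9.84%) in CGG-Cit, with NK cells at 16.8 and 9.38 CPM. Gzmf was at 0 UMIs in NK and CD8 cells of both libraries.

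The cytokines known to induce these genes were seen in cells other than lymphocytes. Il15 was highest in basophils of both libraries (68.8 and 74.6 CPM), and Il12b and Il18 in conventional dendritic cells of both (86.4 and 13.8 CPM for Il12b, 45.0 and 79.6 CPM for Il18).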
